A study of Rattus norvegicus with 3 samples.

Results

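Layer 6 corticothalamic-type excitatory neurons were taken from a single-nucleus RNA-seq survey of the rat brain. They were selected on raw counts of 12 genes by a gate that kept 878 of the 51647 deposited barcodes, and of the 44950 barcodes with at least 500 detected genes. A nucleus entered when it had at least 3 unique molecular identifiers (UMIs, each counting 1 captured RNA molecule) summed over Syt6, Zfpm2, Foxp2, Col24a1, Itga11 and Chrna5, with at least 2 of these 6 genes detected. It also needed at least 1 UMI of Slc17a7 or Tbr1 and 0 UMIs of Gad1, Gad2, Rarb and Slc17a6. The gate kept 321 nuclei of the saline library, 342 of the LPS library and 215 of the poly(I:C) library. The animals were 12-week-old female wild-type rats of the Crl:CD(SD) stock, and each library pooled nuclei of 4 animals killed 7 h after an intraperitoneal injection. The injections were saline, 5 mg/kg of lipopolysaccharide (LPS), a bacterial cell wall component read by Toll-like receptor 4, or 12 mg/kg of poly(I:C), a synthetic double-stranded RNA read by Toll-like receptor 3 and by cytosolic RNA sensors. With 1 library a treatment there was no replicate spread, so no difference between treatments was tested. All intervals below are exact 95% intervals that cover counting error alone, and a difference between libraries cannot be told apart from a difference between pools of animals or preparations.

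Corticothalamic neurons are glutamatergic cells of the deepest cortical layer that project back to the thalamus and set the gain of sensory relay. They are known by the transcription factors Tbr1, Foxp2, Tle4 and Sox5, and lie beside the layer 6b and intratelencephalic neurons of the same depth. Type I interferon acts on nearly all cells through the Ifnar1 and Ifnar2 receptor, Janus kinases and STAT proteins, which bind response elements in the promoters of interferon-stimulated genes.

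The depth behind the values differed between the libraries. The gated nuclei held 647871 UMIs in the saline library, 1234670 in the LPS library and 410411 in the poly(I:C) library. Their median UMIs per nucleus were 1738, 3095 and 1579 in that order, and their median detected genes 1036, 1528 and 937. No gated barcode sequence occurred among the gated nuclei of a second library, although 247 to 550 barcode sequences were shared by pairs of libraries over all barcodes. Levels are given as counts per 1000000 UMIs of the gated nuclei (CPM), so a deeper library has narrower intervals. Where 3 values stand together without library names, they are for saline, LPS and poly(I:C) nuclei in that order.

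The gate rested mainly on Zfpm2 and Foxp2, transcriptional regulators of deep-layer neurons. These 2 genes gave 86.76% of the gate UMIs in the saline library, 88.15% after LPS and 85.17% after poly(I:C). The nuclei just inside the limit, with exactly 3 gate UMIs, numbered 80, 21 and 43, and held Hs3st4 at 2587, 1188 and 2639 CPM. Those just outside, with 2 gate UMIs, numbered 208, 118 and 93 and held Hs3st4 at 1609, 758.4 and 1353 CPM. Excitatory nuclei with no gate UMI held it at 730.1, 605.8 and 781.8 CPM. The limit therefore lay on a slope of Hs3st4 levels rather than in a gap, and nuclei near it in the deeper LPS library held less Hs3st4 than nuclei near it in the other libraries.

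Genes that the gate did not use were compared with the label. Hs3st4, a heparan sulfate sulfotransferase typical of layer 6 corticothalamic neurons, reached 2766 CPM in the saline, 2991 CPM in the LPS and 2822 CPM in the poly(I:C) library. The comparison nuclei were other excitatory nuclei, which met the same Slc17a7 or Tbr1 criterion and the same exclusions but not the 6-gene criterion. The gated level was 2.94-fold [2.78 to 3.11] theirs in the saline, 3.86-fold [3.70 to 4.04] in the LPS and 3.17-fold [2.95 to 3.40] in the poly(I:C) library. A UMI of Hs3st4 was present in 93.15%, 93.27% and 93.49% of the gated nuclei at the median depths above. In inhibitory nuclei, which should express little of it, the shares were 34.53%, 39.80% and 30.76% at median depths of 1550, 2599 and 1390 UMIs. After each nucleus was thinned to 1000 UMIs the gated shares were 85.56%, 85.63% and 85.64%, and the inhibitory shares 27.98%, 26.54% and 26.78%.

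Further deep-layer genes were higher in the gated nuclei of every library. Tle4, a corepressor of corticothalamic neurons, exceeded its level in other excitatory nuclei 3.56-fold, 4.67-fold and 4.33-fold. Sulf1, an enzyme that trims heparan sulfate, did so 3.48-fold, 4.62-fold and 4.84-fold, and Hcrtr2, the orexin receptor 2 and also a member of the layer 6b list, 4.12-fold, 8.62-fold and 6.81-fold. The adhesion gene Cdh18 was 2.24-fold, 2.59-fold and 2.67-fold higher, and the transcription factor Sox5 1.19-fold, 1.47-fold and 1.41-fold. Cux2, a factor of upper-layer neurons, stood at 0.35, 0.23 and 0.23 times its level in other excitatory nuclei. The deep-layer label was thus met by most of the markers outside the gate, with some exceptions. Crym and Bcl11b stood at 1.315-fold [0.70 to 2.31] and 1.096-fold [0.82 to 1.44] in the saline library, intervals that include equality. They were 1.616-fold and 1.724-fold higher after LPS, and 2.744-fold and 1.820-fold after poly(I:C). Rprm had 4, 9 and 0 UMIs in the gated nuclei, and was above other excitatory nuclei in the saline and LPS libraries alone. Ntsr1, a neurotensin receptor used to mark corticothalamic cells in mice, had 1 UMI in each library, and Fezf2, a fate factor of subcortical projection neurons, had 5, 23 and 8 UMIs. Bmp3, also listed as a marker, was lower than in other excitatory nuclei, at 0.53, 0.31 and 0.44 times their level. The list of 13 corticothalamic markers outside the gate summed to 7059 CPM in the saline, 7809 CPM in the LPS and 7717 CPM in the poly(I:C) library.

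**Figure D1:**
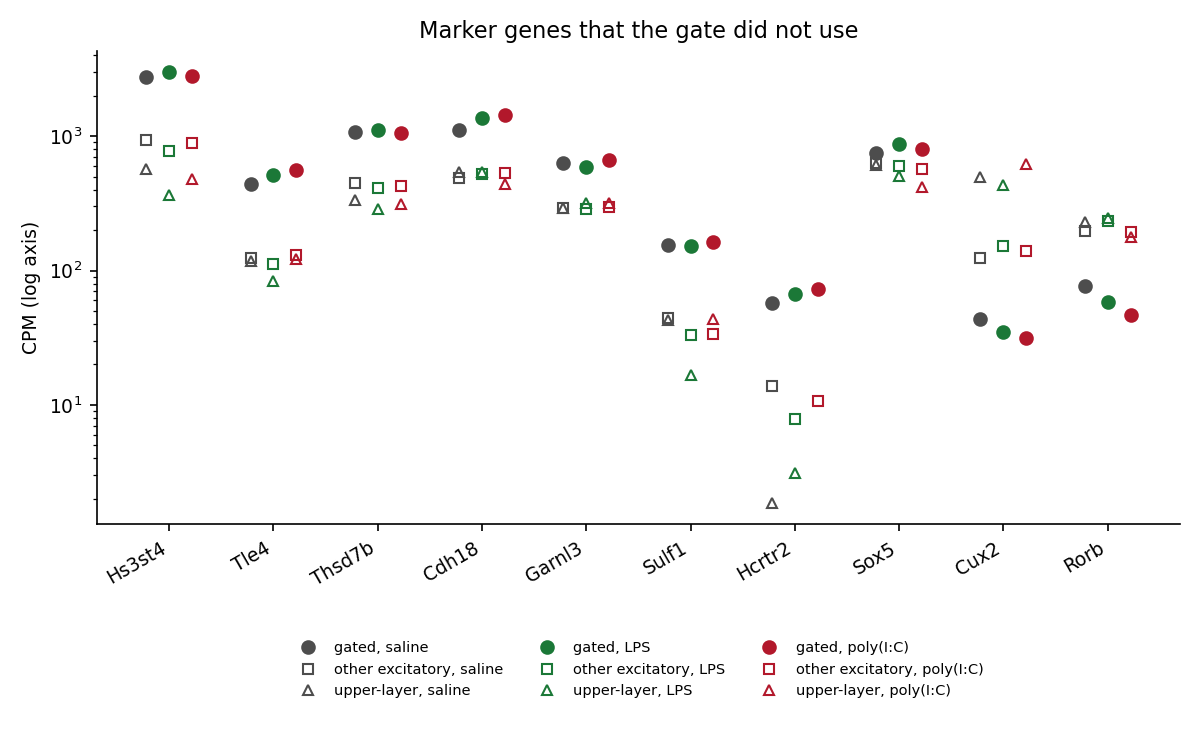
Level of 10 marker genes outside the gate, in CPM on a log axis, for gated nuclei (filled circles), other excitatory nuclei (open squares) and the upper-layer nuclei among these (open triangles) in each library (Cux2 was among the genes that chose the upper-layer nuclei); a population without a UMI of the gene is not drawn. Hs3st4, Tle4, Thsd7b, Cdh18, Garnl3, Sulf1 and Hcrtr2 lie above both comparison populations in all 3 libraries, and Cux2 and Rorb lie below.

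Markers of neighbouring and unrelated cell types were summed over the same nuclei. The 6 layer 6b genes came to 95.70, 119.9 and 121.8 CPM, above the 36.38, 21.08 and 25.69 CPM of other excitatory nuclei. Inhibitory nuclei held the layer 6b list at 119.0, 96.23 and 88.02 CPM. The list was thus higher in the gated than in other excitatory nuclei, and how many gated nuclei are layer 6b neurons was not tested. More than any other member, Hcrtr2 made up the gated sum, at 57.11, 67.22 and 73.10 CPM. Ccn2 was at 13.89, 25.92 and 26.80 CPM, Moxd1 at 12.35, 10.53 and 14.62 CPM, and Svil at 9.261, 13.77 and 7.310 CPM. Cplx3 had 2, 0 and 0 UMIs and Nxph4 0, 3 and 0. The near-projecting list came to 334.9, 287.5 and 350.9 CPM, against 389.1, 317.1 and 358.5 CPM in other excitatory nuclei. The layer 5 extratelencephalic list came to 10.80, 29.16 and 26.80 CPM, with Pou3f1 and Chrna6 at 0, against 52.81, 46.24 and 45.24 CPM there. The layer 4 and 5 intratelencephalic list came to 426.0, 425.2 and 548.2 CPM, against 966.2, 1008 and 950.1 CPM in other excitatory nuclei. The striatal projection list came to 1209, 963.0 and 979.5 CPM, against 1176, 968.9 and 908.3 CPM there. The interneuron list came to 589.6, 567.8 and 514.1 CPM, against 652.9, 305.1 and 378.0 CPM there. The thalamus list came to 105.0, 39.69 and 38.99 CPM, against 86.13, 45.18 and 50.23 CPM there. All 6 oligodendrocyte markers were detected, with sums of 316.4, 311.0 and 187.6 CPM, against 214.3, 226.4 and 189.0 CPM in other excitatory nuclei. Of the 6 astrocyte markers 2 were at 0 in each library. The gated sums were 446.1, 392.8 and 404.5 CPM, above the 206.8, 186.9 and 194.4 CPM of other excitatory nuclei. Without Slc1a2, a glutamate transporter gene, the gated astrocyte sums were 10.80, 12.96 and 12.18 CPM. The 4 mural markers summed to 37.04, 5.670 and 9.746 CPM, nearly all of it Rgs5 in the saline nuclei, and without Rgs5 to 3.087, 2.430 and 2.437 CPM. The 3 endothelial markers found among 5 listed summed to 38.59, 8.099 and 2.437 CPM, from 25, 10 and 1 UMIs. Microglial markers summed to 6.174, 14.58 and 12.18 CPM, and all 4 neutrophil markers were at 0 in the saline and poly(I:C) nuclei.

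Gated nuclei made up 1.504% [1.345 to 1.676] of barcodes with at least 500 genes in the saline library, 3.260% [2.928 to 3.618] in the LPS library and 1.639% [1.429 to 1.871] in the poly(I:C) library. The gate counts UMIs, and the LPS library was the deepest. After thinning every nucleus to 1000 UMIs before gating, which left out 6058, 1181 and 2878 shallower nuclei, the shares were 0.6346% [0.5149 to 0.7736], 0.8700% [0.6915 to 1.080] and 0.9475% [0.7690 to 1.155]. The order of the libraries changed between these measures, and no order of abundance was read from them.

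After poly(I:C), the gated nuclei held more RNA of interferon-stimulated genes than after saline. Of 60 listed interferon-stimulated genes, 55 were found in the feature table, and all UMIs of these entered the sum. The list summed to 285.6 CPM in the saline library (185 UMIs), 364.5 CPM in the LPS library (450 UMIs) and 952.7 CPM in the poly(I:C) library (391 UMIs). The poly(I:C) sum was 3.34-fold [2.79 to 3.996] the saline sum. Without Adar, the member with the most UMIs, it was 4.33-fold [3.50 to 5.38]. By CPM alone, 42 of the 55 genes were higher after poly(I:C), 6 were lower and 7 had no UMI in either library. Of all genes with at least 20 UMIs over both libraries, 79 of 6321 (1.25%) stood at 2-fold or more above saline after poly(I:C) and 281 (4.45%) at 2-fold or more below it. Of the list, 9 genes had that many UMIs, and 5 of these were at least 2-fold higher, 0 lower. Those 5 had 1 to 12 saline UMIs and reached 20 through the poly(I:C) library, so their number is a description and nothing was read from it.

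The promoters of 4 leading members are shown because they carry, or lack, the response element that interferon-activated factors bind. Each run is the 250 bases before the RefSeq transcription start, read 5′ to 3′ on the gene's strand in the GRCr8 build, with matches in capitals; a match is GAAA, any 2 bases and GAAA again, on either strand.
Ifi44: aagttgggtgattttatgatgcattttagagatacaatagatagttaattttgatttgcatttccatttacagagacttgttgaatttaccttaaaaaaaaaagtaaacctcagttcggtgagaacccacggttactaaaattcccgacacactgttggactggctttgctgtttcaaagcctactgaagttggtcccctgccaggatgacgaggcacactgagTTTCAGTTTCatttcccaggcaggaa
Eif2ak2: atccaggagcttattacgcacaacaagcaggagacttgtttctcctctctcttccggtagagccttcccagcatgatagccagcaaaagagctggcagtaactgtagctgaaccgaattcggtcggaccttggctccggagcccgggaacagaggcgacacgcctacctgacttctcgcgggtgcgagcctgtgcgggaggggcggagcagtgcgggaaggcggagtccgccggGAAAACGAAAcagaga
Samd9: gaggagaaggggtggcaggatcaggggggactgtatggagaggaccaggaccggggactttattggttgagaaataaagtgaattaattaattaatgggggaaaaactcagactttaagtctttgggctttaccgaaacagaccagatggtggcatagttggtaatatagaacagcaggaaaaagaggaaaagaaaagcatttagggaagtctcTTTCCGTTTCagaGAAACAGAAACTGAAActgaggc
Herc6: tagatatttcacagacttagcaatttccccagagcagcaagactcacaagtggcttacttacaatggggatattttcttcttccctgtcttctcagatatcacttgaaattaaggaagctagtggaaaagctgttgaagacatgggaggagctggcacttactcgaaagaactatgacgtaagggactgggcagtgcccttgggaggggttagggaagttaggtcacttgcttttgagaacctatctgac
These windows lie at chr2:243303841-243304090 (minus strand), chr6:21940904-21941153 (plus strand), chr4:32138959-32139208 (minus strand) and chr4:88896994-88897243 (minus strand). Ifi44 held 1 match at 26 to 17 bases before the start, Eif2ak2 1 match at 16 to 7, and Samd9 3 matches between 36 and 8, the last 2 overlapping. Herc6, Rnf213 and Stat4 held no match in this window, and Rsad2 held 1 at 147 to 138 bases before its start. The letters occurred in 992 of 27457 RefSeq promoters of this length (3.61%). They occurred in 26 of the 45 listed interferon-stimulated genes that had an entry. Among counted genes with an entry, the letters occurred in 4 of the 57 at least 2-fold higher after poly(I:C), and in 110 of all 4803. Ifi44, Eif2ak2 and Samd9 are among these 4 of 57, and had 1, 4 and 12 saline UMIs. Those genes reached the UMI minimum for counting through the poly(I:C) library, so nothing was read from this share. A match describes the sequence and does not show that a factor binds there.

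Ifi44, an interferon-induced cytoplasmic protein, had 1 UMI in the saline, 5 in the LPS and 22 in the poly(I:C) nuclei, or 1.544, 4.050 and 53.60 CPM. The poly(I:C) level was 34.7-fold [5.61 to 1433] the saline level, and the 22 UMIs lay in 20 nuclei. Rnf213, a large ubiquitin ligase with antimicrobial activity, stood at 3.087, 6.479 and 51.17 CPM, a ratio of 16.6 [4.05 to 146]. For both genes the poly(I:C) library stood alone and the LPS level lay nearer to saline. Eif2ak2 encodes PKR, the kinase that halts translation on sensing double-stranded RNA, and its 4, 17 and 24 UMIs gave 6.174, 13.77 and 58.48 CPM, a poly(I:C) ratio of 9.47 [3.25 to 37.6]. Herc6, a ubiquitin ligase family member that attaches ISG15 in rodents, stood at 13.89, 21.06 and 77.97 CPM with a ratio of 5.61 [2.62 to 13.4]. Samd9, an antiviral factor, was the only one of these 5 whose LPS interval also lay above 1. Its levels were 18.52, 46.17 and 80.41 CPM, with ratios of 2.49 [1.32 to 5.10] after LPS and 4.34 [2.19 to 9.23] after poly(I:C).

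Stat4, a transcription factor of the JAK-STAT pathway that was not on the interferon list, ranked with these genes. Its 6, 28 and 31 UMIs gave 9.261, 22.68 and 75.53 CPM, a poly(I:C) ratio of 8.16 [3.35 to 23.9]. Adar, which edits double-stranded RNA, was higher to a smaller degree, at 100.3, 79.37 and 151.1 CPM, a poly(I:C) ratio of 1.51 [1.05 to 2.17]. Stat2, a subunit of the interferon-activated complex, had a poly(I:C) ratio of 1.74 [0.67 to 4.56], an interval that includes equality. Ifit1bl and Znfx1 had poly(I:C) ratios close to 1, of 0.98 [0.45 to 2.05] and 0.95 [0.42 to 2.03]. Several classical members had too few UMIs for the count rule. Usp18, which removes ISG15 and dampens receptor signalling, had 0, 0 and 12 UMIs, and Ifit2 1, 0 and 12. Mx1 and Mx2, antiviral GTPases, had 8 UMIs each after poly(I:C) and 0 after saline, and Rsad2, which encodes viperin, 6 and 0. With the 0 saline UMIs set to a floor of 3, Usp18 was 6.31-fold higher, Mx1 and Mx2 4.21-fold and Rsad2 3.16-fold. The lower ends of their exact intervals were 4.386 for Usp18, 2.695 for Mx1 and Mx2, and 1.859 for Rsad2.

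**Figure D2:**
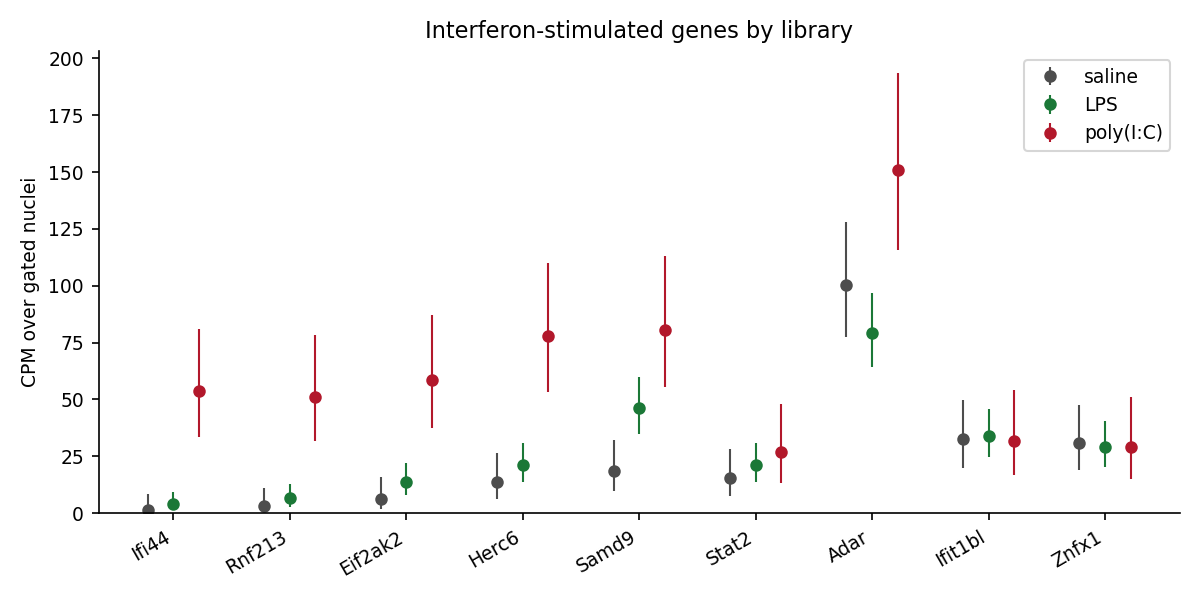
Level of the 9 interferon-stimulated genes with at least 20 UMIs over the saline and poly(I:C) libraries, in CPM over the gated nuclei of each library, with exact Poisson 95% intervals that cover counting error only. Ifi44, Rnf213, Eif2ak2, Herc6 and Samd9 are highest in the poly(I:C) library, while Ifit1bl and Znfx1 lie together.

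After LPS the same list differed less from saline. Over all genes, 193 of 8152 (2.37%) stood at 2-fold or more above saline after LPS and 209 (2.56%) at 2-fold or more below it. Of 8 interferon-stimulated genes counted, 3 (Samd9, Eif2ak2 and Tor3a) were at least 2-fold higher and 0 lower. All 3 had 4 to 12 saline UMIs and reached 20 through the LPS library, so nothing was read from this number. The summed ratio was 1.28 [1.07 to 1.52], and 1.54 [1.25 to 1.91] without Adar, whose own LPS ratio was 0.79 [0.57 to 1.10]. With each nucleus thinned to 1000 UMIs, the summed ratio was 1.095, from 120 LPS and 89 saline UMIs, and no interval was computed for it. LPS and poly(I:C) were each set against the same saline library, so the direct comparison of the treated libraries was also made. Among 7627 genes, 344 (4.51%) stood at 2-fold or more above the poly(I:C) level after LPS and 156 (2.05%) at 2-fold or more below it. The interferon list was at 0.383 [0.333 to 0.439] of its poly(I:C) level, with 4 of 10 counted members at least 2-fold lower and 0 higher, a number to which the same limit applies. Ifi44 was 13.2-fold [4.89 to 44.7] lower after LPS than after poly(I:C), Rnf213 7.90-fold [3.36 to 20.6], Eif2ak2 4.25-fold [2.19 to 8.42] and Herc6 3.70-fold [2.14 to 6.47].

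The interferon-stimulated RNA after poly(I:C) was spread over many nuclei. In nuclei thinned to 1000 UMIs, at least 1 UMI of the list was found in 26.35% of 277 saline, 26.10% of 341 LPS and 51.98% of 202 poly(I:C) nuclei. Shares with at least 2 such UMIs were 5.776%, 6.158% and 22.77%. At least 3 were found in 0 of the saline nuclei, which allows a share of up to 1.323%, in 0.8798% of the LPS and in 10.40% of the poly(I:C) nuclei. Without thinning, the shares with at least 1 UMI were 39.25%, 61.11% and 68.84%, so the LPS value moved most with depth. Thinned inhibitory and other excitatory nuclei gave shares of 24.49% and 24.96% in the saline library and of 44.18% and 54.84% in the poly(I:C) library. Counts were more uneven than a single rate would give after treatment: the variance over the mean was 1.042 in the saline, 1.703 in the LPS and 1.932 in the poly(I:C) nuclei. The 10 nuclei with the most UMIs of the list held 16.8% of them in the saline, 20.2% in the LPS and 30.2% in the poly(I:C) library, and 1 poly(I:C) nucleus held 24 of 391.

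**Figure D3:**
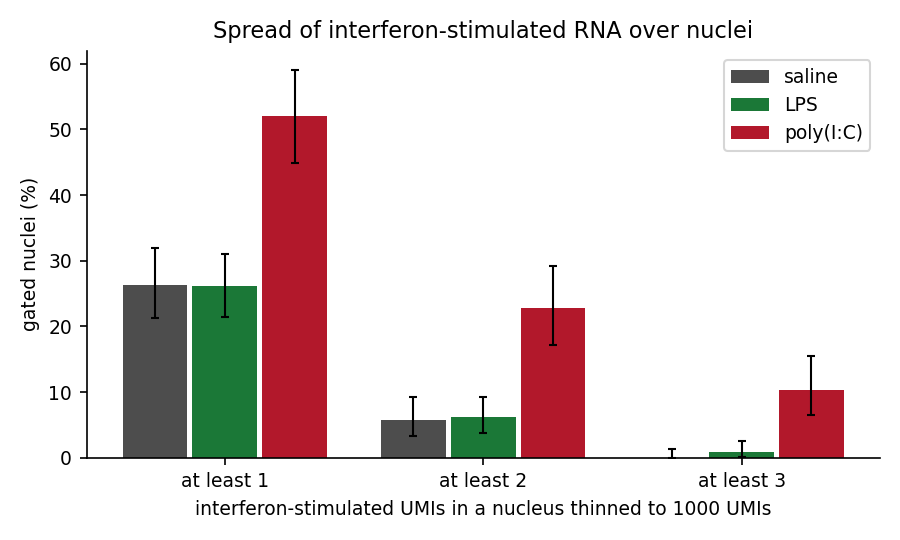
Percent of gated nuclei with at least 1, 2 or 3 UMIs of interferon-stimulated genes after thinning each nucleus to 1000 UMIs, by library, with exact Clopper-Pearson 95% intervals (counting error only). The poly(I:C) bars, at 51.98%, 22.77% and 10.40%, stand above those of the saline and LPS libraries.

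The gated poly(I:C) nuclei without Hs3st4 held more interferon-stimulated RNA than the rest. The 14 nuclei with no Hs3st4 UMI were at 2619 CPM [2101 to 3227], and the 201 nuclei with one at 804.1 CPM [716.1 to 899.9]. The smaller group was also deeper, with a median of 2384 UMIs per nucleus against 1567. Its level rests on 88 UMIs of the list, and how these were spread over the 14 nuclei was not examined. The intervals leave out the unevenness among nuclei described above, so a few nuclei may set this level. In the saline library the corresponding groups of 22 and 299 nuclei were at 369.4 CPM [211.2 to 599.9] and 279.5 CPM [239.0 to 325.0]. The poly(I:C) ratio over saline in nuclei with Hs3st4 was 2.88, against 3.34 over all gated nuclei.

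The same genes were richer still in barcodes with under 500 genes, which can hold free RNA and sparse or damaged nuclei. There the list reached 390.6 CPM in the saline, 1463 CPM in the LPS and 7934 CPM in the poly(I:C) library, against 952.7 CPM in the gated poly(I:C) nuclei. The ratio of the gated level to the level in those barcodes differed among genes after poly(I:C). It was 0.743 [0.550 to 0.991] for Adar, 0.623 [0.412 to 0.919] for Samd9, 0.322 [0.201 to 0.494] for Eif2ak2, and 0.092 [0.063 to 0.131] for Herc6. For Mx1 it was 0.042 [0.018 to 0.083], and for the chemokine Cxcl11 0.021 [0.0098 to 0.038]. In the saline library it was 0.843 [0.633 to 1.11] for Adar and 1.69 [0.77 to 3.48] for Samd9. How much of each gene's UMIs in gated nuclei came from free RNA was not tested.

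**Figure D4:**
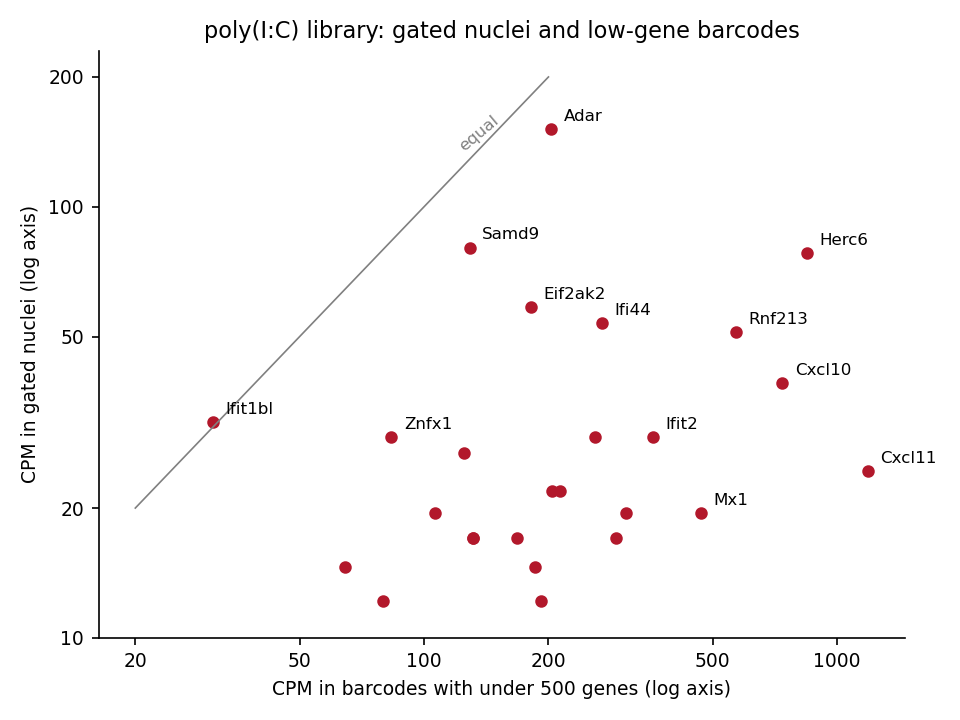
Level of each interferon-stimulated gene or chemokine with at least 5 UMIs in the gated nuclei of the poly(I:C) library, in CPM on log axes, against its level in barcodes of that library with under 500 genes; the line marks equal levels. Adar, Samd9 and Ifit1bl lie near the line, and Herc6, Rnf213, Mx1, Cxcl10 and Cxcl11 lie far to its right.

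The size of the interferon difference in gated nuclei could not be separated from that in other neurons of the same libraries. The poly(I:C) over saline ratio of the list in gated nuclei was 0.90 [0.75 to 1.08] times that in other excitatory nuclei, 0.88 [0.69 to 1.14] times that in upper-layer nuclei and 1.11 [0.91 to 1.35] times that in inhibitory nuclei. For LPS over saline the corresponding values were 1.02 [0.85 to 1.23], 0.997 [0.782 to 1.27] and 1.12 [0.92 to 1.36]. All of these intervals include 1, which does not show that the nuclei respond alike. Eif2ak2 had poly(I:C) ratios of 9.47 in gated and 9.46 in other excitatory nuclei, Samd9 4.34 and 3.75, Herc6 5.61 and 3.51, and Stat4 8.16 and 5.21. Ifi44 and Rnf213 went the other way, at 34.7 and 40.8 for Ifi44 and 16.6 and 28.0 for Rnf213. For each of these genes the interval in gated nuclei held the ratio of other excitatory nuclei.

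Genes upstream of interferon and its neighbours in innate immunity were counted from their own lists. RNA sensors and adaptors, which share Adar, Eif2ak2, Ifih1 and Ddx58 with the interferon list, summed to a ratio of 0.95 [0.77 to 1.18] after LPS and 1.68 [1.32 to 2.14] after poly(I:C), with 1 of 4 counted members at least 2-fold higher after poly(I:C), beside 1.25% of all counted genes. That member was Eif2ak2, already counted in the interferon list. Interferon receptors and JAK-STAT genes gave 0.95 [0.83 to 1.10] and 1.17 [0.98 to 1.39], with 0 of 10 counted members past 2-fold in either comparison. Ifnar1, a subunit of the type I interferon receptor, was at 47.85, 27.54 and 53.60 CPM, an LPS ratio of 0.58 [0.34 to 0.97]. Class I antigen presentation genes gave 1.10 [0.75 to 1.63] and 1.39 [0.87 to 2.22]. Targets of NF-kB, the factor activated below Toll-like receptors, gave 1.16 [0.95 to 1.44] and 0.89 [0.66 to 1.19]. Among them Sod2, the mitochondrial superoxide dismutase, was at 9.261, 25.11 and 14.62 CPM, an LPS ratio of 2.71 [1.11 to 7.95]. Cytokines and chemokines gave 0.98 [0.73 to 1.32] and 1.69 [1.21 to 2.37]. Of this list Cxcl9, Cxcl10 and Cxcl11, ligands that draw T cells, had 7, 16 and 10 UMIs after poly(I:C) and 0 after saline.

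Lists of neuronal function differed from saline by little. Their ratios rest on scaling by total UMIs, as do those of the channel and transcription factor lists below. Median-of-ratios scaling would raise each ratio to saline by 0.0551 log2 after LPS and 0.0534 log2 after poly(I:C). Ratios this near 1 therefore depend on the scaling. Synaptic vesicle and release genes were at 1.05 [1.03 to 1.07] times their saline level after LPS and 1.06 [1.03 to 1.08] after poly(I:C), with 0 of 27 and 1 of 26 counted members (Vamp2, of the vesicle fusion machinery) at least 2-fold higher and 0 lower. Glutamate receptor and scaffold genes gave 1.02 [0.998 to 1.04] and 1.03 [1.01 to 1.06], and GABA receptors 0.97 [0.93 to 1.01] and 1.01 [0.96 to 1.06]. Within the glutamate list, the kainate receptor subunit Grik1 was at 86.44, 42.93 and 97.46 CPM and the NMDA receptor subunit Grin3a at 47.85, 23.49 and 24.37 CPM, LPS ratios of 0.50 [0.33 to 0.74] and 0.49 [0.29 to 0.84].

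Voltage-gated potassium channels summed to 0.953 [0.934 to 0.972] of saline after LPS and 0.964 [0.939 to 0.989] after poly(I:C), and 0 of 25 counted members were past 2-fold in either comparison. Kcnd2 and Kcnd3, subunits of the A-type current, had LPS ratios of 0.833 [0.782 to 0.887] and 0.699 [0.571 to 0.856], and the fast delayed rectifier Kcnc2 0.743 [0.641 to 0.862]. Sodium, calcium and HCN channels gave 0.937 [0.908 to 0.967] after LPS, with the calcium channel subunit Cacna2d3 at 0.779 [0.703 to 0.863]. Of 22 counted members of that list, 1 was at least 2-fold higher after LPS and 0 lower, beside 2.37% and 2.56% of all counted genes. By CPM, 12 members were higher and 11 lower. Relative to the ratio in other excitatory nuclei, the LPS ratios were 0.929 [0.909 to 0.949] for potassium and 0.917 [0.887 to 0.949] for sodium, calcium and HCN channels. These values rest on scaling by total UMIs. With median-of-ratios scaling the LPS ratios were 0.990 [0.970 to 1.01] for potassium and 0.974 [0.943 to 1.005] for sodium, calcium and HCN channels, and the poly(I:C) ratio of potassium channels was at equality [0.974 to 1.03], so no direction is given for these lists.

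Serotonin receptors Htr7 and Htr4 were lower after LPS, at 0.369 [0.194 to 0.689] and 0.608 [0.398 to 0.932] of saline. Their list of neuromodulator receptors as a whole was at 0.959 [0.894 to 1.03]. Neuropeptide genes gave 0.996 [0.792 to 1.26] after LPS and 0.729 [0.518 to 1.01] after poly(I:C). Of 5 neuropeptide genes counted after LPS, 2 were at least 2-fold higher and 0 lower, beside 2.37% and 2.56% of all counted genes. So few genes were counted that nothing was read from this number. Transcription factors of deep-layer neurons, which include the markers Tle4, Fezf2, Sox5 and Bcl11b, gave 1.11 [1.07 to 1.16] and 1.08 [1.02 to 1.13].

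Immediate early genes, which report recent neuronal activity, were read as a sum and without its main gene. The list summed to 804.2, 658.5 and 1045 CPM, ratios of 0.82 [0.73 to 0.92] after LPS and 1.30 [1.14 to 1.48] after poly(I:C). After LPS, 1 of 10 counted members (Vgf) was at least 2-fold higher and 2 (Egr1 and Bdnf) were lower, all with intervals that include 1, beside 2.37% of all counted genes higher and 2.56% lower. After poly(I:C) 0 of 5 were past 2-fold. Most of the sum was Homer1, a synaptic scaffold gene, with 354, 566 and 305 UMIs and ratios of 0.84 [0.73 to 0.96] and 1.36 [1.16 to 1.59]. Without Homer1 the sum gave 0.78 [0.64 to 0.95] after LPS and 1.17 [0.92 to 1.49] after poly(I:C), and the latter interval includes equality. By CPM, 12 genes were higher and 18 lower after LPS, and 16 higher and 14 lower after poly(I:C). Nr4a1, a nuclear receptor induced by activity, had an LPS ratio of 0.52 [0.28 to 0.98]. Fos had 5, 2 and 1 UMIs, too few to compare.

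Cholesterol synthesis and uptake genes were lower after LPS. Their sum was 560.3 CPM in the saline, 396.9 in the LPS and 499.5 in the poly(I:C) library, ratios of 0.71 [0.62 to 0.81] and 0.89 [0.75 to 1.06]. Of 13 members counted against LPS, 3 (Sqle among them) were at least 2-fold lower and 0 higher, beside 2.56% of all counted genes lower and 2.37% higher, with a median log2 ratio of -0.64 against -0.03 over all genes. Sqle, the squalene epoxidase, was at 33.96, 15.39 and 38.99 CPM, an LPS ratio of 0.45 [0.23 to 0.88]. Srebf2, the factor that drives the pathway, had an LPS ratio of 1.11 [0.80 to 1.55]. The LPS ratio of the list was 0.94 [0.81 to 1.09] times that in other excitatory nuclei and 0.80 [0.65 to 0.99] times that in upper-layer nuclei.

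Circadian clock genes summed to 0.878 [0.822 to 0.938] of saline after LPS and 0.959 [0.881 to 1.04] after poly(I:C). Rora, a nuclear receptor that activates Bmal1, gave 1099, 882.0 and 1060 CPM and an LPS ratio of 0.803 [0.730 to 0.883]. Without Rora the list's LPS ratio was 0.953 [0.870 to 1.05], so the LPS value of the sum was mainly that of 1 gene. Glucocorticoid-induced genes gave 1.08 [0.96 to 1.23] and 1.11 [0.94 to 1.30], with Fkbp5, a chaperone induced by stress hormones, at 1.57 [1.01 to 2.53] after LPS. Heat shock genes gave 0.98 [0.88 to 1.08] and 1.08 [0.95 to 1.23], and nuclear respiratory chain genes 1.03 [0.93 to 1.14] and 0.96 [0.84 to 1.11].

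**Figure D5:**
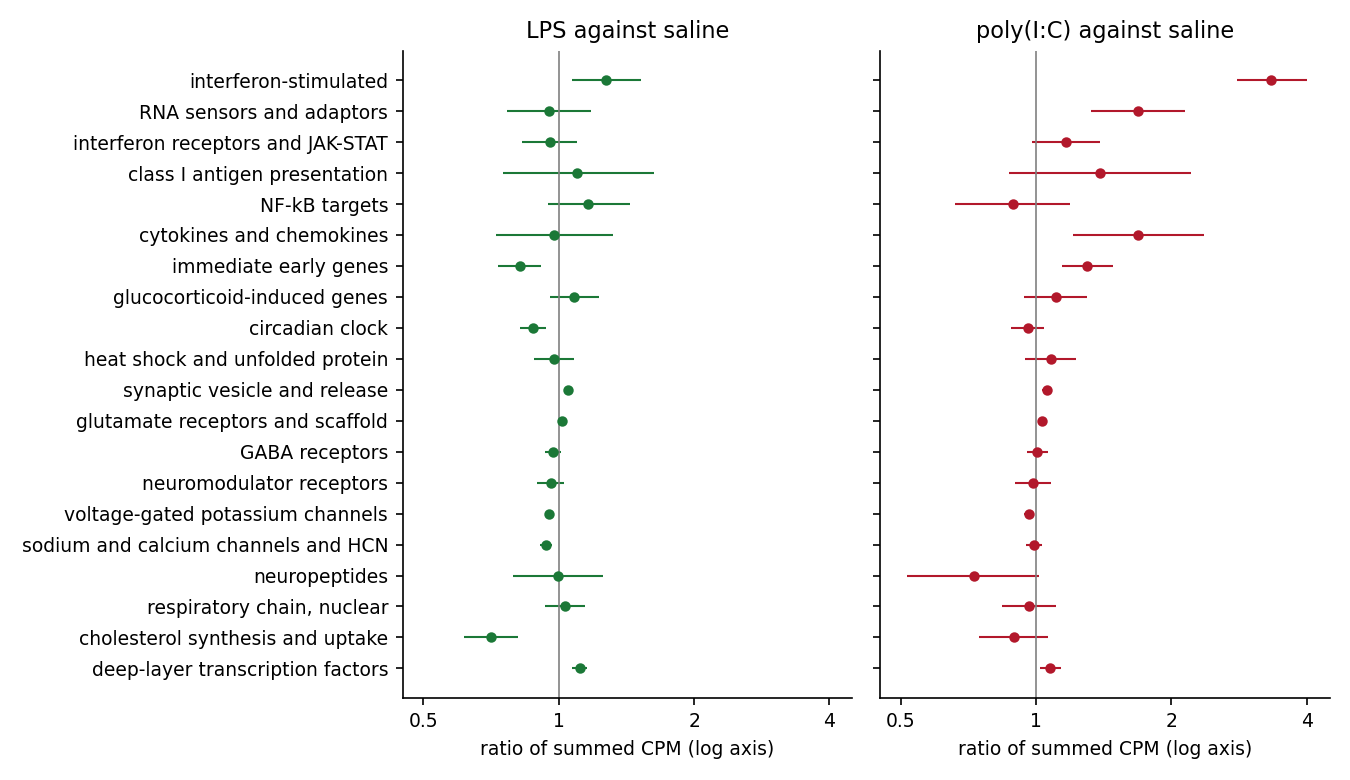
Ratio of each list's summed CPM in the gated nuclei to the saline library, after LPS (left) and poly(I:C) (right), on a log axis, with exact 95% intervals that cover counting error only; the line marks 1. The interferon list after poly(I:C), at 3.34, lies farthest from 1, and cholesterol genes after LPS, at 0.71, lie lowest in the LPS panel.

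Outside the lists, the genes most apart by the near end of their interval were read beside other excitatory nuclei. After poly(I:C), 4 genes outside the interferon list and Stat4 were among the 10 highest. Mllt6, a chromatin protein, was 4.74-fold [1.64 to 16.7] higher and Mitd1, a membrane trafficking protein of cell division, 3.75-fold [1.57 to 9.90]. Vps45, which serves vesicle fusion, was 2.68-fold [1.56 to 4.70] higher and the ciliary gene Wdpcp 2.30-fold [1.54 to 3.45]. In other excitatory nuclei their ratios were 1.26, 1.56, 0.92 and 1.11, each nearer to 1. Of genes lower after poly(I:C), Kcmf1, a ubiquitin ligase, had 49 UMIs in 48 saline nuclei and 9 after poly(I:C), 3.45-fold [1.68 to 7.99] lower. Zc3h10 was 9.82-fold [2.50 to 84.7] lower, Dtx1, a Notch regulator, 14.6-fold [2.37 to 600], and Nsg1, a neuronal endosome protein, 5.70-fold [1.75 to 29.4]. The 4 genes were at 0.92, 0.75, 0.97 and 0.94 times saline in other excitatory nuclei. Genes were chosen here as the extremes of all ratios counted, from few UMIs, and the other excitatory nuclei, with more UMIs, did not show differences of that size.

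After LPS the highest genes had the same pattern. Aldh1a1, a retinoic acid synthesis enzyme, was at 40.50 CPM after LPS and 12.35 after saline, 3.28-fold [1.54 to 8.01] higher, and Cdc25b, a phosphatase of the cell cycle, 3.59-fold [1.51 to 10.3]. Commd3, a regulator of NF-kB and endosomal sorting, was 4.33-fold [1.54 to 16.8] higher. Their ratios in other excitatory nuclei were 0.96, 0.98 and 1.11. More abundant genes moved less and in both populations. Mmp16, a membrane metalloproteinase, had 461 saline and 1323 LPS UMIs, a ratio of 1.51 [1.35 to 1.68] against 1.27 in other excitatory nuclei. Mgat4c, a glycosyltransferase gene, had a ratio of 1.67 [1.41 to 1.998] against 1.25.

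Among the 10 genes lowest after LPS, several are known from blood vessels and other non-neuronal cells. Lower vascular marker levels after treatment were not particular to the gated nuclei. In other excitatory nuclei the mural list was at 24.41, 7.618 and 12.27 CPM and the endothelial list at 32.15, 11.16 and 7.285 CPM. Inhibitory nuclei held the 2 lists at 18.67, 4.010 and 11.28 CPM and at 29.53, 6.014 and 12.79 CPM. Rgs5, a pericyte gene, was 10.5-fold [3.56 to 41.8] lower, with its 22 saline UMIs in 11 nuclei. Sparc, Ebf1 and Cxcl12, all expressed by vascular cells, were 5.24-fold, 4.76-fold and 5.17-fold lower, and Lef1, a thalamic and endothelial factor, 5.72-fold [3.06 to 11.3]. The 21 saline nuclei with Lef1 held Hs3st4 at 1411 CPM, against 2766 CPM over all saline gated nuclei. Ptgds, made by meningeal and glial cells, was 7.24-fold lower after LPS and 12.0-fold lower after poly(I:C), and 13 of its 19 saline UMIs lay in 1 nucleus. Reln, the secreted glycoprotein reelin, was 3.42-fold lower after poly(I:C), and 14 of its 54 saline UMIs also lay in 1 nucleus. Dach1 was 7.29-fold [2.66 to 27.9] lower after poly(I:C), and its 33 saline nuclei held Hs3st4 at 1824 CPM. Saline nuclei with Ebf1 and Reln held Hs3st4 at 2084 and 2016 CPM, also below the level over all saline gated nuclei. Those with Rgs5 and Ptgds held it at 3199 and 3674 CPM, above that level. The part of other cells' RNA in these differences was not tested.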

How the data were processed

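Nuclei were isolated on an iodixanol gradient and made into 10x Genomics 5′ v2 libraries, per the labels' protocols. The deposited values are UMI counts per gene and barcode, which the authors made with Cell Ranger 7.0.0 on mRatBN7.2, per the submitters' processing notes. The features numbered 30560, of which 7162 carry an identifier only and were not named. Of 604 listed symbols, 36 were not found. Counts were summed over gated nuclei per library and divided by their total UMIs. Ratios carry exact conditional 95% intervals and levels exact Poisson intervals (scipy 1.17.1), covering counting error only. A gene was counted at 20 UMIs or more over both libraries and called at 2-fold. With 1 library a treatment, no p-value was computed. Named genes were the 10 highest and 10 lowest per comparison by the interval end nearest 1, and from each list up to 4 members with the most UMIs and up to 3 with the farthest interval; Ifit2, Usp18, Mx1, Mx2, Rsad2, Fos and the members that make up small counts were also chosen after their values were seen. Doublets were called with Scrublet (scanpy 1.11.5), which marked 4.2871%, 4.2322% and 5.3599% of saline, LPS and poly(I:C) barcodes with at least 500 genes, and were left out only as an alternative. Some list members are not reported here by name. The method was tested on simulated data drawn as independent counts. That test does not cover the unevenness of counts among nuclei. Promoter sequences are from RefSeq (GRCr8) and none of their coordinates were joined to the count tables. The members, the lists and the comparisons were chosen with earlier results of these data known.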

Additional observations from a re-analysis of the deposited data

How the results depend on the processing

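No paired analysis was possible because each treatment had 1 library. Over 14 other settings, the summed ratio of interferon-stimulated genes in gated nuclei stayed above 1 for poly(I:C) against saline (1.506 to 3.695) and for LPS against saline (1.036 to 1.360), and below 1 for LPS against poly(I:C) (0.3333 to 0.5295). With members of at least 50 UMIs alone these ratios were 1.506, 1.036 and 0.5295, since fewer genes enter. After thinning to 1000 UMIs, LPS against saline was 1.095. No intervals were computed for these settings, so a ratio this near 1 was not told apart from equality. With 2 counts added, poly(I:C) against saline was 2.553 and LPS against poly(I:C) 0.4636. The latter was 0.4594 in nuclei with a Hs3st4 UMI and 0.3333 without doublets. Counts of genes 2-fold apart moved with the UMI minimum. At 50 UMIs, 18 genes were higher and 34 lower after LPS, 9 higher and 30 lower after poly(I:C), and 39 higher and 15 lower in LPS against poly(I:C). With 1 UMI in either library the counts were 747 and 1086, 835 and 1198, and 866 and 1477. After thinning to 1000 UMIs, 90 genes were higher after LPS, 131 lower after poly(I:C), and 119 higher and 80 lower in LPS against poly(I:C). With 2 counts added, 106 were higher and 105 lower after LPS, and 88 lower in LPS against poly(I:C). Averaging each nucleus's CPM gave 120 genes higher after poly(I:C). A gate of at least 4 UMIs over 3 genes gave 147 genes lower after poly(I:C). Leaving out nuclei with Lef1, Rgs5, Ebf1, Ptgds or Dach1 UMIs, a setting chosen after seeing the data, gave 185. Shares of gated nuclei (saline, LPS, then poly(I:C)) were 0.5201%, 1.763% and 0.5794% under the stricter gate, 2.269%, 4.193% and 2.045% among barcodes with at least 1000 genes, 12.39%, 18.04% and 13.51% of excitatory nuclei, and 0.6346%, 0.8700% and 0.9475% after thinning. Median-of-ratios scaling put potassium channels at equality for poly(I:C) against saline, and moved the LPS ratios to 0.9899 for potassium and 0.9735 for sodium, calcium and HCN channels, with intervals that include 1. Cytokines in LPS against poly(I:C) were at 1.205 with members of at least 50 UMIs. Without nuclei that held Cxcl9, Cxcl10 or Cxcl11, also chosen after seeing the data, they were at 1.018, and at 0.8509 for poly(I:C) against saline; this setting left out 0 saline nuclei and takes list UMIs from the treated libraries alone, so neither value is evidence. The causes were not tested. Depth limits single genes: of the genes called 2-fold apart, the interval was clear of 1 for 48 of 79 higher and 130 of 281 lower after poly(I:C), and 71 of 193 and 123 of 209 after LPS.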
